A study of Arabidopsis thaliana with 10 samples.

Results

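The Aux/IAA repressor genes and the GH3 auxin-conjugating enzyme genes were followed through a set of phytochrome interacting factor (PIF) mutants of Arabidopsis thaliana. The members were chosen by gene family and not by a measured value, though with earlier results of these data known. They were 29 Aux/IAA genes (IAA1 to IAA20 and IAA26 to IAA34) and 6 GH3 genes (GH3.1, GH3.2, GH3.3, GH3.5, GH3.6 and GH3.17). They make up 35 of the 33322 loci in the count table, and 32 of them (26 Aux/IAA and 6 GH3) had enough counts to be tested. Whole seedlings of the Columbia background were grown at 21 °C in darkness and harvested at 2 days, and all groups shared 3 h of white light to induce germination and a 15 min far-red pulse before the dark. The 10 genotypes were the wild type (WT), the single mutants pif1, pif3, pif4 and pif5, and the triple mutants pif345 (which keeps PIF1), pif145 (which keeps PIF3), pif135 (which keeps PIF4) and pif134 (which should keep PIF5). The tenth was the quadruple mutant pifq, which lacks PIF1, PIF3, PIF4 and PIF5. RNA from the 3′ ends of transcripts was sequenced from 3 biological replicates per genotype, lettered A, B and C. The labels used here name no allele.

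Auxin is read in the nucleus by TIR1/AFB F-box receptors, which bind Aux/IAA proteins through a short degron and mark them for destruction. Aux/IAA proteins otherwise hold auxin response factors (ARFs) in a repressed state together with TOPLESS corepressors, and many Aux/IAA genes are themselves targets of ARFs, so their transcripts rise soon after auxin does. GH3 enzymes of the group studied here join auxin to amino acids and so lower the free hormone, and several of their genes are also early auxin targets. PIFs are basic helix-loop-helix transcription factors that drive stem elongation in the dark, bind G-box and related elements, and are removed when light activates phytochromes.

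The family was divided by the degron core Gly-Trp-Pro-Pro. Its coding sequence is shown for the 4 genes with this core that were called lower in pifq, with the 12 core bases in capitals. Only these exact residues were searched for, and a degron with an altered core was not. The core was coded in 23 of the 29 Aux/IAA genes and lacking in 6 (IAA20, IAA30, IAA31, IAA32, IAA33 and IAA34), while the Leu-x-Leu-x-Leu motif that recruits corepressors was coded in 28. All genome sequences here are from RefSeq TAIR10.1.
IAA3 (chr1:1129019-1129048, minus strand): cagattgttGGATGGCCACCAgttagatct
IAA17 (chr1:1136938-1136967, plus strand): caagttgtgGGATGGCCACCGgtgagatca
IAA19 (chr3:5264307-5264336, plus strand): caggtggtgGGGTGGCCACCGgtttgttct
IAA29 (chr4:15583942-15583971, plus strand): gaagttgttGGATGGCCACCAgtaaaaaca

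The promoters of IAA19 and IAA29, the Aux/IAA genes with the smallest adjusted p in pifq, and of GH3.2, called in the opposite direction, are shown as the 300 bases before the annotated gene start. Capitals mark 4 motifs searched on both strands: the G-box (CACGTG), the PIF-binding E-box (PBE-box, CACATG or CATGTG), the classic auxin response element (AuxRE, TGTCTC or GAGACA) and the high-affinity AuxRE (TGTCGG or CCGACA). No match overlapped another in these 3 windows.
IAA19 (chr3:5263701-5264000, plus strand): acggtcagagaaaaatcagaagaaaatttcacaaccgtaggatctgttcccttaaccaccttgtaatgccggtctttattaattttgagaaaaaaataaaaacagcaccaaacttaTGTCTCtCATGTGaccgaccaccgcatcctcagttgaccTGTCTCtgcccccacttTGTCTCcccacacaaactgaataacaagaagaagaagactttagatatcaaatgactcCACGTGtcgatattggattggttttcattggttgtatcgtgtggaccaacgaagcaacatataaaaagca
IAA29 (chr4:15583032-15583331, plus strand): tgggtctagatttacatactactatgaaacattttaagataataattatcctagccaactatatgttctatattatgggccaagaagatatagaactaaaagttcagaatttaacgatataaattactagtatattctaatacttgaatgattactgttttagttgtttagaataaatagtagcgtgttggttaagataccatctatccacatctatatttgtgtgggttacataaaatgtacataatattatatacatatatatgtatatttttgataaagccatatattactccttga
GH3.2 (chr4:17579318-17579617, plus strand): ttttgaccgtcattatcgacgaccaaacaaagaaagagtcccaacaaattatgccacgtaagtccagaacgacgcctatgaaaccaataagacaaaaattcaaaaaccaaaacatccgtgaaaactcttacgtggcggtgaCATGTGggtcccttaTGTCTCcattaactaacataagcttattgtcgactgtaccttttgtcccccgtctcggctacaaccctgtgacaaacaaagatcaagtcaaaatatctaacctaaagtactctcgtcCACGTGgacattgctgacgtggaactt
IAA19 held a G-box, 3 classic AuxREs and a PBE-box in this window, GH3.2 a G-box, a PBE-box and a classic AuxRE, and IAA29 none of the 4 motifs.

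A G-box lay within 300 bases of the start in 5 of the 35 members (14.3%), compared with 7.18% of 26710 promoters in the genome. The PBE-box was found in 12 members (34.3%, genome 13.1%), the classic AuxRE in 14 (40%, genome 12.9%) and the high-affinity AuxRE in 6 (17.1%, genome 4.89%). Within 2000 bases, 18 members (51.4%) had a G-box, against 24.0% of the genome. A match is only a run of letters and was not tested for binding. The G-box sites near the start are given with 12 bases on each side and the box in capitals to show their context.
IAA7 (chr3:8194572-8194601, plus strand): tctaatcaagccCACGTGtcataaacccca
IAA19 (chr3:5263919-5263948, plus strand): atcaaatgactcCACGTGtcgatattggat
IAA20 (chr2:19307589-19307618, plus strand): atcatcgtttgaCACGTGttttggtctgct
IAA30 (chr3:22995575-22995604, plus strand): gtgtctgcatgaCACGTGtatttgtctgct
GH3.2 (chr4:17579579-17579608, plus strand): agtactctcgtcCACGTGgacattgctgac
These boxes began 22, 70, 113, 99 and 27 bases before the start of IAA7, IAA19, IAA20, IAA30 and GH3.2.

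**Figure D1:**
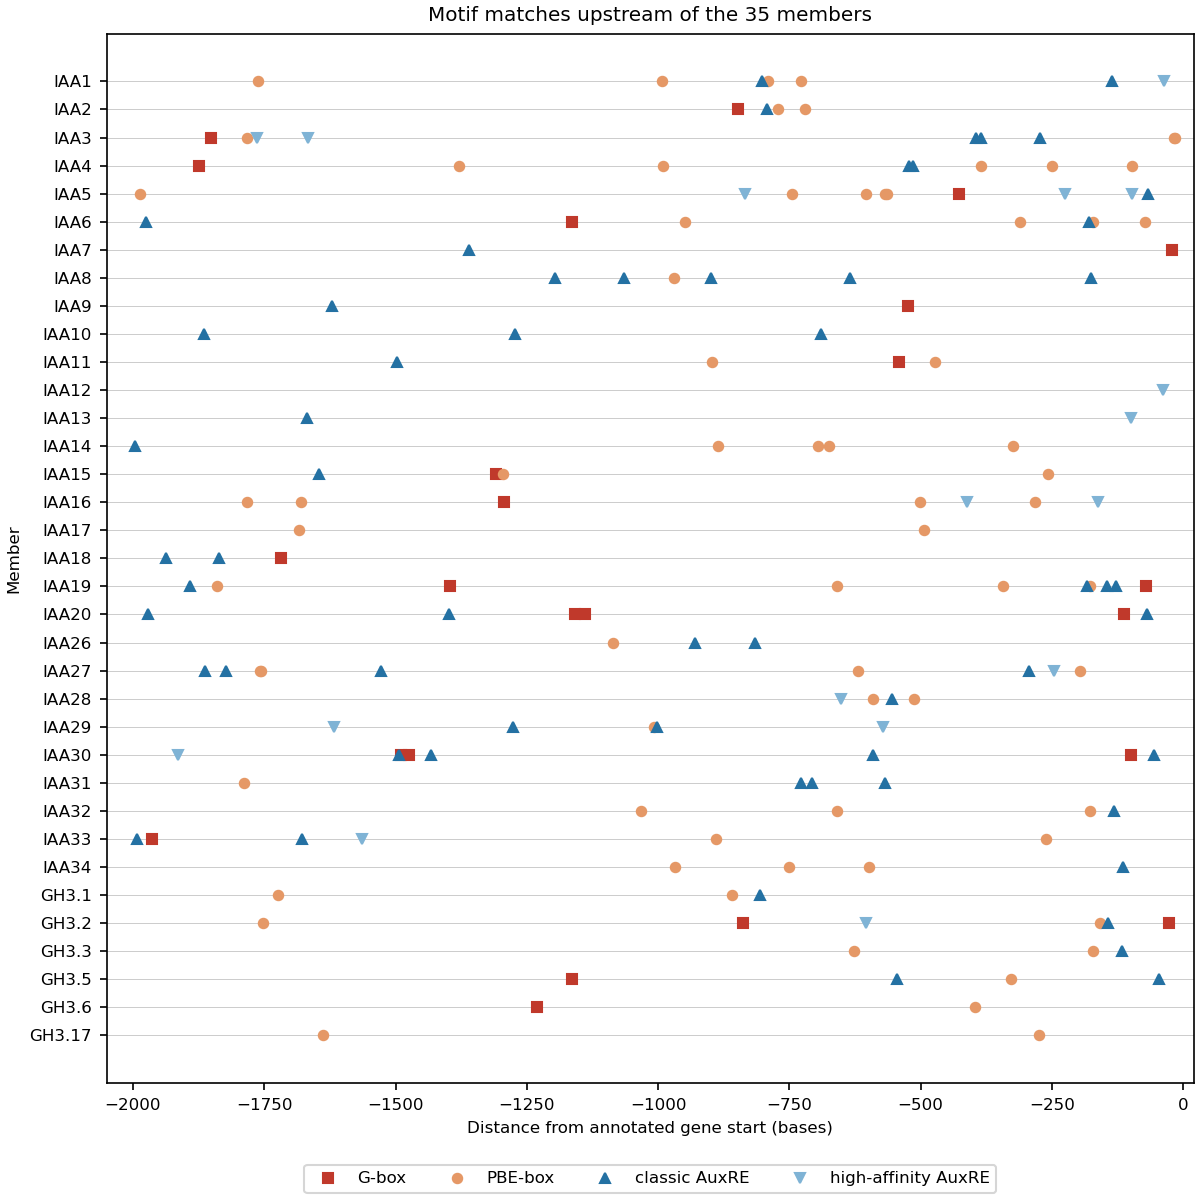
Matches to 4 motifs upstream of the 35 members; the x axis is the distance from the annotated gene start in bases and each row is 1 gene. G-boxes (squares) lie within 300 bases of the start in IAA7, IAA19, IAA20, IAA30 and GH3.2. IAA29 has no G-box in 2000 bases but has the other motifs farther upstream. These are a PBE-box at 1007 bases, classic AuxREs at 1003 and 1277 and high-affinity AuxREs at 572 and 1617.

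IAA6 and IAA19, a pair of related Aux/IAA genes, shared a promoter stretch of 40 bases in which 38 were identical (95.0%). Shared bases are in capitals.
IAA19 (chr3:5263815-5263854, plus strand): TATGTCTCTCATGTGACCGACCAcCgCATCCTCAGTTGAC
IAA6 (chr1:19673794-19673833, minus strand): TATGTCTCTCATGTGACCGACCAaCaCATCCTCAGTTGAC
The stretch began 186 bases before the start of IAA19 and 181 bases before that of IAA6. Its 13-base core TGTCTCTCATGTG, which joins a classic AuxRE to a PBE-box, occurred in 2 of the 26711 promoters searched, those of IAA6 and IAA19. The stretch was noticed after the expression values were seen. Its core was cut from this pair, so these 2 matches were fixed in advance. How often other runs of 13 bases recur was not counted, so the count does not show that the core is particular to the pair.

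Library depth ran from 18.97 to 70.8 M counts, with a median of 25.2 M. PIF3 was 69.8, 82.7 and 69.0 CPM (counts scaled to a library of 1 M) in WT and 1.69, 1.57 and 2.47 in pif3, and PIF5 was 7.39, 7.02 and 6.97 in WT and 0.338, 0.592 and 0 in pif5. PIF1 fell from 22.6, 20.7 and 31.8 CPM in WT to 1.05, 1.44 and 2.34 in pif1, but stood at 14.9 in pif145 C and 12.4 in pif135 A. PIF1 held 58.1, 56.7 and 74.5 CPM in the libraries labelled pif134, where PIF3 was low (4.76 to 5.86) and PIF5 present (16.0 to 24.9), so that these libraries go against their label and are named by it throughout. PIF4 was not low in pif4 (13.6, 26.2 and 16.4 CPM, WT 13.6, 11.7 and 10.02). It was higher than WT in all 4 triple mutants and pifq (log2 fold change 1.83 to 3.64, edgeR adjusted p up to 0.000680), most in the libraries labelled pif134 at 212, 149 and 79.0 CPM. Reads from 3′ ends cannot check a mutation that leaves the transcript's end. WT and the single mutants form one set of libraries in which replicate letters deviate together, and the triple mutants and pifq form another. In comparisons that cross these sets, which include every triple mutant or pifq against WT, effects of the set and of the mutations cannot be told apart.

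Levels spanned a wide range among the members. The library protocol reads 1 end of each transcript, so CPM was not divided by gene length. IAA7, IAA17, IAA9, IAA4 and IAA8 had the highest medians over the 30 libraries, at 721, 581, 473, 410.3 and 319 CPM. IAA7 (AXR2) and IAA17 (AXR3) are known from dominant mutants with short hypocotyls and agravitropic roots. IAA3, IAA2, IAA16, IAA18, IAA19, IAA26 and IAA20 followed between 147 and 20.4 CPM, and IAA19 is among the genes that growth-promoting auxin is known to induce. Among the genes without the degron core the medians were 20.4 CPM for IAA20, 5.29 for IAA32, 2.05 for IAA30, 0.462 for IAA31 and 0.373 for IAA34. Among the GH3 genes the medians were 95.8 CPM for GH3.6, 56.2 for GH3.5, 56.1 for GH3.3, 46.8 for GH3.2, 16.0 for GH3.17 and 2.15 for GH3.1. The 3 members that were not tested were IAA15, with no count in any of the 30 libraries, IAA33, with 24 counts in all, and IAA14, with 146 counts and at most 0.460 CPM. IAA14 (SLR) is a repressor of lateral root founding.

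**Figure D2:**
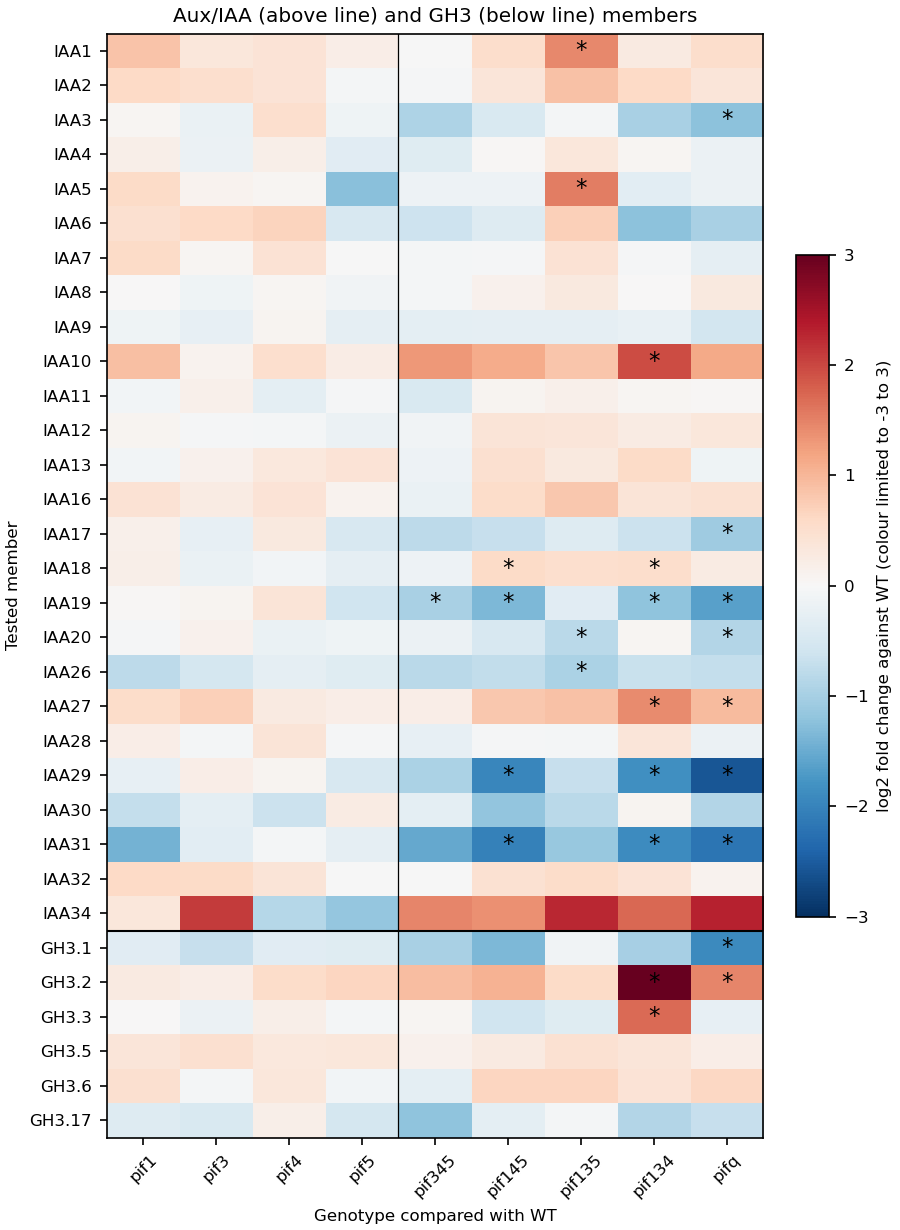
Log2 fold change of each tested member (rows) in the 9 mutants against WT (columns), with colour limited to -3 to 3 and a line between Aux/IAA and GH3 genes. IAA29, IAA19, IAA31 and GH3.17 are among the members with values below 0 in all 4 triple mutants and pifq, called or not. GH3.2 is highest in the libraries labelled pif134 (3.38).

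The quadruple mutant asks what auxin-response transcripts do in darkness without the 4 PIFs. IAA29, IAA19, IAA17, IAA3, IAA20, IAA31 and GH3.1 were lower in pifq than in WT, and IAA27 and GH3.2 were higher. These 9 calls among 32 tested members (28.1%) compare with 15.2% (8.01% higher, 7.17% lower) of all 18680 loci tested by edgeR's quasi-likelihood test at an adjusted p under 0.05. The median log2 fold change was -0.17 over the members and -0.01 over all loci, and the other 23 tested members were not called. DESeq2 also called 9 (18.2% of the loci it tested).

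Markers of cell types moved with genotype as well, beside the members, and their part in these results was not tested. Summed over 4 root hair markers, WT held 18.6 to 34.9 CPM, pifq 1.42 to 7.36 and the libraries labelled pif134 0.423 to 1.78, and 3 of the 4 were called lower in pifq. Of 2 endodermis markers, 1 was lower in pifq (summed 662 to 1206 CPM in WT and 391 to 484 in pifq). Of 4 seed storage markers 3 were lower (2112 to 3940 CPM in WT and 128 to 635 in pifq), and of 3 photosynthetic markers all 3 were higher (1065 to 1756 CPM in WT and 10516 to 16391 in pifq). The stomatal list had 1 of 2 tested markers higher (3.53 to 7.45 CPM in WT and 12.9 to 15.9 in pifq for 3 genes). The triple mutants moved too: in pif145, pif135 and the libraries labelled pif134, 3 of 4 seed storage markers were lower and all 3 photosynthetic markers higher, while in pif345 none of the former and 2 of the latter were called. Root hair markers were lower for 3 of 4 in pif345 and in pif145, 1 in pif135 and all 4 in the libraries labelled pif134. The 2 tested stomatal markers were higher in pif135 and not called in the other triple mutants. Of the 2 endodermis markers, 1 was lower in the libraries labelled pif134 and none was called in the other triple mutants. No marker was at 0 in all 3 replicates of WT or pifq. In whole seedlings, fewer cells of a type and less RNA per cell cannot be told apart.

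IAA29 (AT4G32280, chromosome 4, 15583332 to 15584903) had the steepest fall. It is a canonical repressor known as a shade- and warmth-induced target of PIFs. Its level was 28.0, 12.6 and 13.3 CPM in WT A, B and C and 3.099, 3.16 and 2.80 in pifq. All pifq libraries lay below all WT libraries, and the log2 fold change was -2.57 ± 0.46 (SE, n = 3 per group, edgeR adjusted p = 0.000234). IAA19 (AT3G15540, chromosome 3, 5264001 to 5265695), also called MSG2 and needed for hypocotyl bending toward light and against gravity, was 64.2, 58.8 and 57.9 CPM in WT and 10.9, 29.9 and 17.6 in pifq. The groups did not overlap, though pifq B stood above the other pifq libraries, and the change was -1.63 ± 0.29 (edgeR adjusted p = 0.000198). Both calls held in each of the 14 alternatives computed, with adjusted p up to 0.00311 for IAA29 and 0.00296 for IAA19.

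IAA17 and IAA3 (SHY2, a regulator of root meristem size) are neighbours on chromosome 1, transcribed away from each other with 6388 bases and no protein-coding gene between them. Both fell in pifq. IAA17 (1136078 to 1138663) was 856, 716 and 804 CPM in WT and 344, 464 and 328 in pifq, without overlap (-1.06 ± 0.24, edgeR adjusted p = 0.00275), and kept its call in all 14 alternatives. IAA3 (1128149 to 1129689) was 269, 140.2 and 122 CPM in WT and 65.8, 61.2 and 100.4 in pifq (-1.22 ± 0.36, edgeR adjusted p = 0.0194). WT A was far above the other WT libraries. Without it the change was -0.79 and the adjusted p 0.187, and the call was also lost without pifq A or pifq B (over all alternatives, 0.00280 to 0.187). Another divergent pair, IAA2 and IAA7 on chromosome 3 with 12510 bases between them, showed no call in pifq (0.35 and -0.28).

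Among the Aux/IAA genes without the degron core, IAA20 and IAA31 fell. IAA20 (AT2G46990, chromosome 2, 19307714 to 19309071) was 28.6, 24.1 and 21.7 CPM in WT and 18.1, 10.9 and 11.6 in pifq, again with no overlap (-0.87 ± 0.26, edgeR adjusted p = 0.0197). Leaving out WT A, pifq B or pifq C ended this call (adjusted p from 0.0868 to 0.106; over all alternatives 0.000720 to 0.106). IAA31 (AT3G17600, chromosome 3, 6019973 to 6021147) was 2.01, 0.343 and 0.953 CPM in WT and 0.266, 0.236 and 0.193 in pifq, so that WT B came close to the pifq libraries (-2.19 ± 0.62, edgeR adjusted p = 0.0167). Its change was -1.43 and its adjusted p 0.174 without WT A, and the call was lost without pifq B or pifq C as well (over all alternatives 0.00384 to 0.174). IAA30, the closest relative of IAA20, was 3.121, 1.86 and 4.07 CPM in WT and 1.73, 1.56 and 1.64 in pifq (-0.87 ± 0.40, edgeR adjusted p = 0.148). IAA34 stood at 0, 0.321 and 0.230 CPM in WT and 1.46, 1.13 and 0.434 in pifq (2.31 ± 0.99, adjusted p = 0.114 by edgeR), and IAA32 differed by 0.11.

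Of the canonical repressors, IAA27 (AT4G29080, chromosome 4, 14323296 to 14325361), also called PAP2 for its binding to phytochrome, was called higher in pifq. It went from 1.85, 1.41 and 1.97 CPM in WT to 2.57, 4.62 and 2.85, with no overlap (0.94 ± 0.31, edgeR adjusted p = 0.0401). The call was lost without any one of WT A, WT B, WT C, pifq B and pifq C, with total counts alone, without the count filter and with only the 2 groups in the fit (over all alternatives 0.000852 to 0.262). IAA10 was 2.75, 3.98 and 2.50 CPM in WT and 4.91, 6.61 and 8.88 in pifq, apart but not called (1.13 ± 0.45, edgeR adjusted p = 0.0878). The abundant IAA7, IAA4, IAA8 and IAA9 differed by -0.28, -0.18, 0.30 and -0.55, none called.

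The GH3 genes split. GH3.1 (AT2G14960, chromosome 2, 6451319 to 6453797) fell from 4.35, 2.61 and 3.35 CPM in WT to 1.11, 0.566 and 1.06 in pifq (-1.90 ± 0.52, edgeR adjusted p = 0.0117). GH3.2 (AT4G37390, chromosome 4, 17579618 to 17582022) rose from 34.0, 28.3 and 25.4 CPM to 83.7, 78.8 and 80.1 (1.47 ± 0.39, edgeR adjusted p = 0.00993). Neither pair of groups overlapped, and the 3 pifq libraries of GH3.2 lay close together. The GH3.1 call was lost without WT A or pifq B (adjusted p 0.0513 and 0.0691; over all alternatives 0.00199 to 0.0691), while that of GH3.2 was kept in all 14 alternatives, up to 0.0498. GH3.6 (DFL1, whose activation shortens hypocotyls) was 97.8, 63.3 and 74.0 CPM in WT and 114, 119 and 129 in pifq, apart but not called (0.62 ± 0.29, edgeR adjusted p = 0.156). GH3.3, GH3.5 and GH3.17 differed by -0.25, 0.21 and -0.69, none called.

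**Figure D3:**
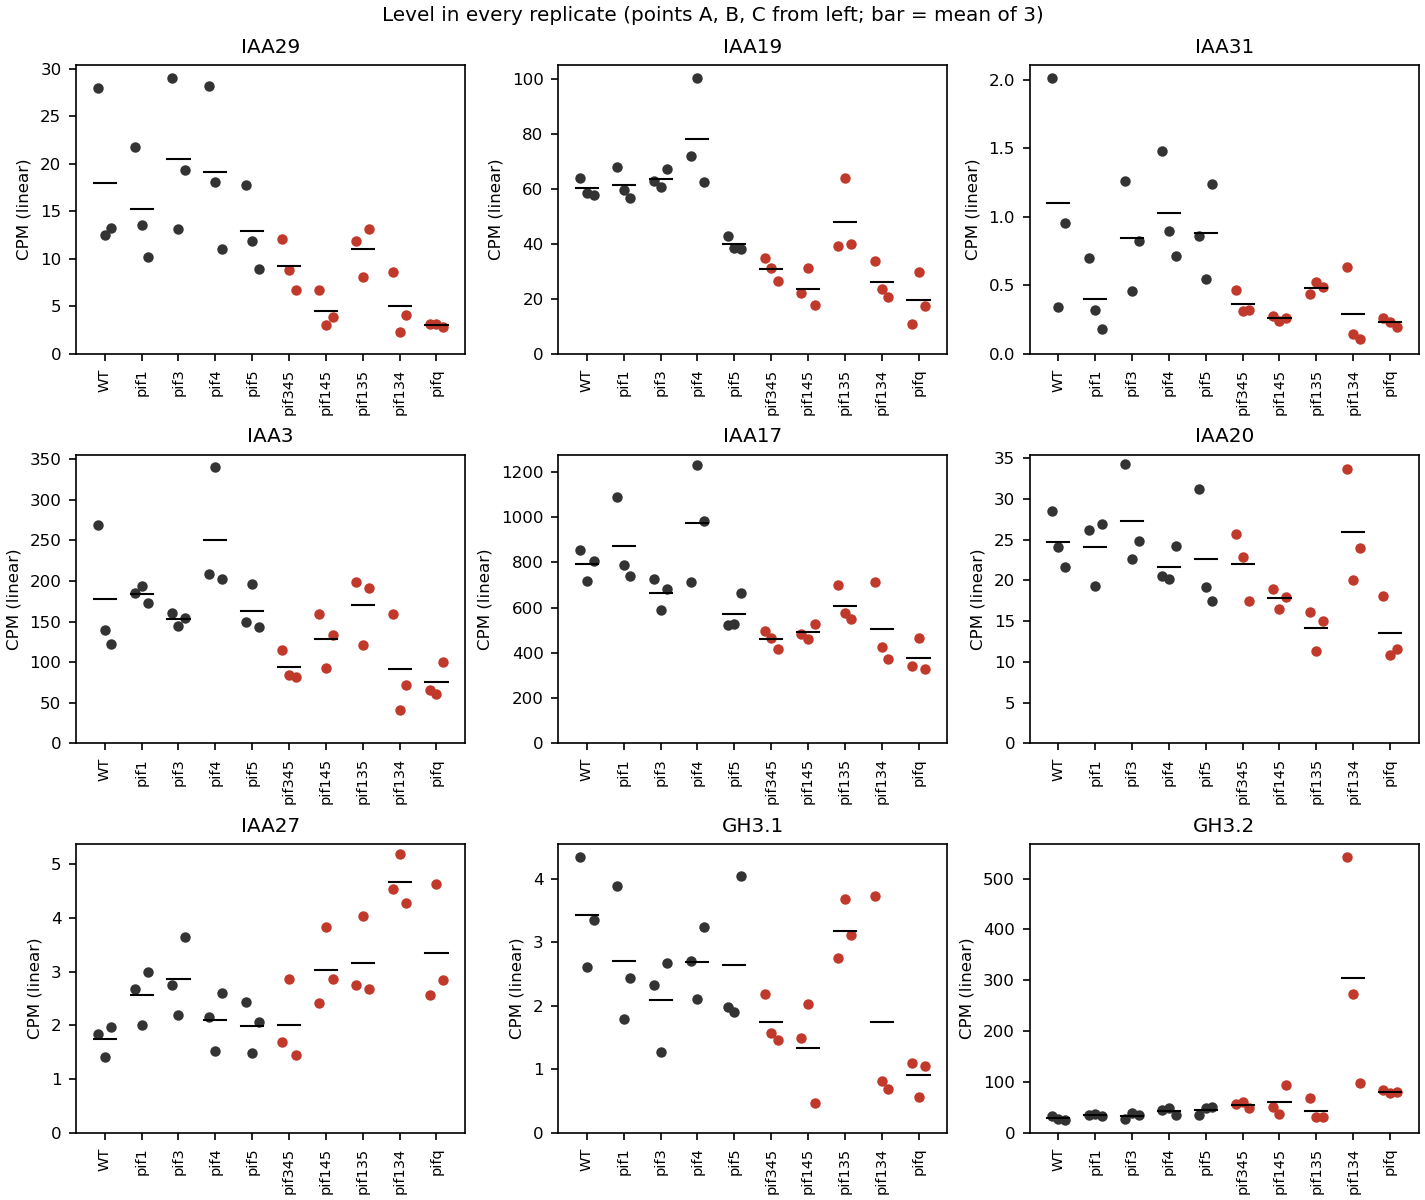
CPM (linear axis from 0) of the 9 members called in pifq against WT, for replicates A, B and C of each genotype, with bars at the mean; WT and single mutants are dark, triple mutants and pifq red. IAA29 lies between 2.80 and 3.16 in pifq against 12.6 to 28.0 in WT, and GH3.2 reaches 542 in pif134 A.

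The triple mutants ask what 1 remaining PIF maintains. Against WT, edgeR called 1 of 32 tested members in pif345 (3.1%, background 3.9% of all loci) and 4 in pif145 (12.5%, background 12.1%). It called 4 in pif135 (12.5%, background 12.6%) and 8 in the libraries labelled pif134 (25%, background 16.9%). In pif345, pif145 and pif135 the share of members called was thus close to that of all loci. Which members were called differed by genotype, which alone does not show that the genotypes differ. The triple mutants were not tested against each other in pairs. A joint test over them and pifq, and tests of pifq against each, are given further on. DESeq2 called 3 (background 5.88%), 7 (15.2%), 7 (16%) and 11 (19.2%). These comparisons and that of pifq share the 3 WT libraries.

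In pif345, which keeps PIF1, IAA19 held 34.8, 31.2 and 26.6 CPM. All 3 values lay below WT (-0.97 ± 0.28, edgeR adjusted p = 0.0486). The call was lost when any of the 6 libraries was left out, with RLE scaling, with total counts alone and without the filter (over all alternatives 0.00766 to 0.237). IAA29 held 12.1, 8.79 and 6.76 CPM (-0.96 ± 0.43, edgeR adjusted p = 0.226), all below WT B, the lowest WT value. GH3.17, which prefers to conjugate auxin with glutamate, was 10.7, 8.79 and 8.04 CPM in pif345 against 31.2, 13.6 and 18.7 in WT (-1.20 ± 0.37, edgeR adjusted p = 0.0627).

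In pif145, which keeps PIF3, IAA29 fell to 6.71, 3.08 and 3.92 CPM and IAA19 to 22.2, 31.4 and 17.8, all below WT. The changes were -1.96 ± 0.44 for IAA29 (edgeR adjusted p = 0.00399) and -1.34 ± 0.28 for IAA19 (edgeR adjusted p = 0.00235), and both were kept in all 14 alternatives. IAA31 was 0.276, 0.237 and 0.265 CPM (-2.03 ± 0.62, edgeR adjusted p = 0.0297); its call was lost without WT A, where the change was -1.28, without WT C, without any pif145 library and with only the 2 groups fitted (over all alternatives 0.00718 to 0.238). IAA18, whose dominant mutant disturbs embryo and root formation, rose to 62.7, 64.6 and 70.5 CPM from 50.8, 38.3 and 43.5 in WT (0.58 ± 0.18, edgeR adjusted p = 0.0343). That call was lost without WT B, WT C, pif145 B or pif145 C, without the filter and with only the 2 groups fitted (over all alternatives 0.00578 to 0.207).

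In pif135, which keeps PIF4, IAA29 and IAA19 were not called. IAA29 held 11.9, 8.10 and 13.2 CPM, overlapping WT (-0.70), and IAA19 39.3, 64.1 and 40.2, where replicate B lay within the WT range (-0.33). IAA1 (AT4G14560), known as AXR5, rose to 26.8, 14.9 and 34.0 CPM from 9.03, 9.63 and 9.03 in WT (1.45 ± 0.33, edgeR adjusted p = 0.00356, kept in all 14 alternatives). IAA5 rose to 1.44, 2.31 and 3.92 CPM from 0.739, 0.921 and 0.986 (1.53 ± 0.50, edgeR adjusted p = 0.0431), a call lost without any WT library, pif135 B or pif135 C, and without the filter (over all alternatives 0.0192 to 0.260). IAA20 fell to 16.1, 11.4 and 15.0 CPM (-0.81 ± 0.25, edgeR adjusted p = 0.0353) and IAA26 (PAP1, a phytochrome-binding Aux/IAA protein) to 17.0, 23.3 and 15.1 from 46.5, 25.7 and 35.1 in WT (-0.95 ± 0.30, edgeR adjusted p = 0.0352). Both calls were lost without each of 4 libraries, which were WT A, WT B, pif135 B and pif135 C for IAA20 (up to 0.132) and WT A, WT C, pif135 A and pif135 C for IAA26 (up to 0.183).

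In the libraries labelled pif134, GH3.2 reached 542, 274 and 98.9 CPM, every one above WT and with a wide spread (3.38 ± 0.42, edgeR adjusted p = 1.67e-06, kept in all 13 alternatives). GH3.3 was 508, 55.5 and 53.0 CPM against 83.2, 56.0 and 49.8 in WT, so that replicate A alone was high (1.71 ± 0.55, edgeR adjusted p = 0.0302). Without pif134 A the change turned to -0.19 (adjusted p = 0.765), and the call was also lost without WT B or WT C and with only the 2 groups fitted. IAA10 rose to 8.43, 17.5 and 10.04 CPM (1.95 ± 0.46, edgeR adjusted p = 0.00279) and IAA27 to 4.53, 5.18 and 4.28 (1.42 ± 0.31, edgeR adjusted p = 0.00164), both clear of WT and kept in all 13 alternatives. IAA18 also rose, to 73.1, 62.8 and 56.5 CPM, all above WT (0.54 ± 0.18, edgeR adjusted p = 0.0381), but not without WT B, WT C, pif134 A or pif134 B, with total counts alone, without the filter or with only the 2 groups fitted (over all alternatives 0.00662 to 0.207). IAA29 at 8.66, 2.26 and 4.07 CPM (-1.85 ± 0.44, edgeR adjusted p = 0.00363) and IAA19 at 34.0, 23.6 and 20.6 (-1.21 ± 0.28, edgeR adjusted p = 0.00291) fell in all 13 alternatives. IAA31 was 0.631, 0.144 and 0.106 CPM, with replicate A inside the WT range (-1.89 ± 0.62, edgeR adjusted p = 0.0341), and its call was lost without WT A (-1.14), WT C, pif134 B or pif134 C and with only the 2 groups fitted (over all alternatives 0.00532 to 0.278).

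Beyond the calls given above, no GH3 gene or gene without the degron core was called in a triple mutant. GH3.1 was 2.19, 1.57 and 1.46 CPM in pif345, 1.5004, 2.04 and 0.477 in pif145, 2.75, 3.68 and 3.116 in pif135 and 3.73, 0.816 and 0.687 in pif134, with changes against WT of -0.97, -1.34, -0.10 and -0.99. All libraries of pif345 and pif145 lay below WT, and those of pif135 and pif134 overlapped it. GH3.2 differed by 0.93 in pif345, 1.05 in pif145 and 0.57 in pif135, and all 9 of these libraries were above 2 of the 3 WT libraries. GH3.3 outside pif134 differed by -0.60 to 0.05, GH3.5 by 0.13 to 0.45, GH3.6 by -0.30 to 0.65 and GH3.17 by -1.20 to -0.05. IAA30 differed by -1.18 in pif145 (1.03, 1.23 and 1.75 CPM, all below WT, edgeR adjusted p = 0.0583) and by -0.80 to 0.09 in the others. IAA32 differed by -0.01 to 0.55 and IAA34 by 1.38 to 2.27, IAA20 outside pif135 by -0.47 to 0.06, and IAA31 by -1.53 in pif345 and -1.14 in pif135.

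Comparing pifq with each triple mutant within 1 set of libraries addresses what the loss of the last PIF adds. Against pif135, which by its label keeps PIF4 and in which replicate A also held PIF1 transcript, IAA29 and IAA19 were lower in pifq, 2 calls against a background of 0.696% in either direction and 0.509% lower. IAA29 changed by -1.87 ± 0.45 (edgeR adjusted p = 0.0487) and IAA19 by -1.30 ± 0.28 (edgeR adjusted p = 0.0289), and in both genes all 3 pifq libraries lay below all 3 pif135 libraries. Leaving out pif135 B, pif135 C, pifq A or pifq C ended either call, and pifq B that of IAA29 (up to 0.279 for IAA29 and 0.293 for IAA19), as did fitting the 2 groups alone and, for IAA29, RLE scaling. Both calls held without pif135 A. The replicate letters pair the libraries here. With the letter as a block within each set, 9 members were lower in pifq and none higher (background 6.49%): IAA1, IAA2, IAA3, IAA5, IAA6, IAA7, IAA19, IAA29 and GH3.1, with adjusted p from 0.000611 for IAA29 to 0.0475 for IAA2.

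IAA6 (SHY1), the gene that shares the promoter stretch with IAA19, was 3.02, 8.10 and 4.13 CPM in pif135 and 0.664, 2.88 and 1.16 in pifq. The groups did not overlap, replicate B was the highest in both, and each pifq library lay below the pif135 library of its letter. The change was -1.71 ± 0.43 without the block (edgeR adjusted p = 0.0606) and -1.75 ± 0.31 with it (adjusted p = 0.00245). IAA19 showed the same order of letters, at 39.3, 64.1 and 40.2 CPM in pif135 and 10.9, 29.9 and 17.6 in pifq. IAA3 was 199, 121 and 192 CPM in pif135 against 65.8, 61.2 and 100.4 in pifq (-1.17 unblocked, edgeR adjusted p = 0.127, and 0.0225 with the block), and GH3.1 was 2.75, 3.68 and 3.116 against 1.11, 0.566 and 1.06 (-1.80, adjusted p = 0.108 by edgeR and 0.0165 with the block). IAA17, the divergent partner of IAA3, was 702, 574 and 549 CPM against 344, 464 and 328, apart but called in neither fit (-0.68, edgeR adjusted p = 0.184).

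Against pif345, IAA29 was lower in pifq (-1.61 ± 0.45, edgeR adjusted p = 0.0476, background 2.75%), with pif345 at 12.1, 8.79 and 6.76 CPM and pifq at 3.099, 3.16 and 2.80, and the call was lost without any 1 of the 6 libraries (adjusted p from 0.0581 to 0.212). With the block 4 members were called (background 10.4%): IAA29 (-1.57 ± 0.28, adjusted p = 0.000575) and IAA20 (-0.73, adjusted p = 0.0130) lower, and IAA27 (0.74, adjusted p = 0.0136) and GH3.6 (0.95, adjusted p = 0.00987) higher. Replicate C of pif145, which by its label keeps PIF3, also held PIF1 transcript. Against pif145 no member was called by edgeR or DESeq2, nor with the block. The background was 0.551% by edgeR, 0.937% by DESeq2 and 2.11% with the block. By edgeR 1 member had an unadjusted p under 0.05, against 8.11% of all loci. Against the libraries labelled pif134, GH3.2 was lower in pifq (-1.91 ± 0.39, edgeR adjusted p = 0.00673, background 1.35%), but without pif134 A the change was -1.22 and the adjusted p 0.143, and the call was also lost with only the 2 groups fitted. The block added IAA20 (-0.94, adjusted p = 0.00355) and GH3.3 (-1.44, adjusted p = 0.0342), both lower in pifq, to make 3 calls (background 3.35%). For GH3.3, at 508, 55.5 and 53.0 CPM in pif134 and 66.8, 36.2 and 56.3 in pifq, replicate A of pif134 alone lay apart and the groups overlapped.

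**Figure D4:**
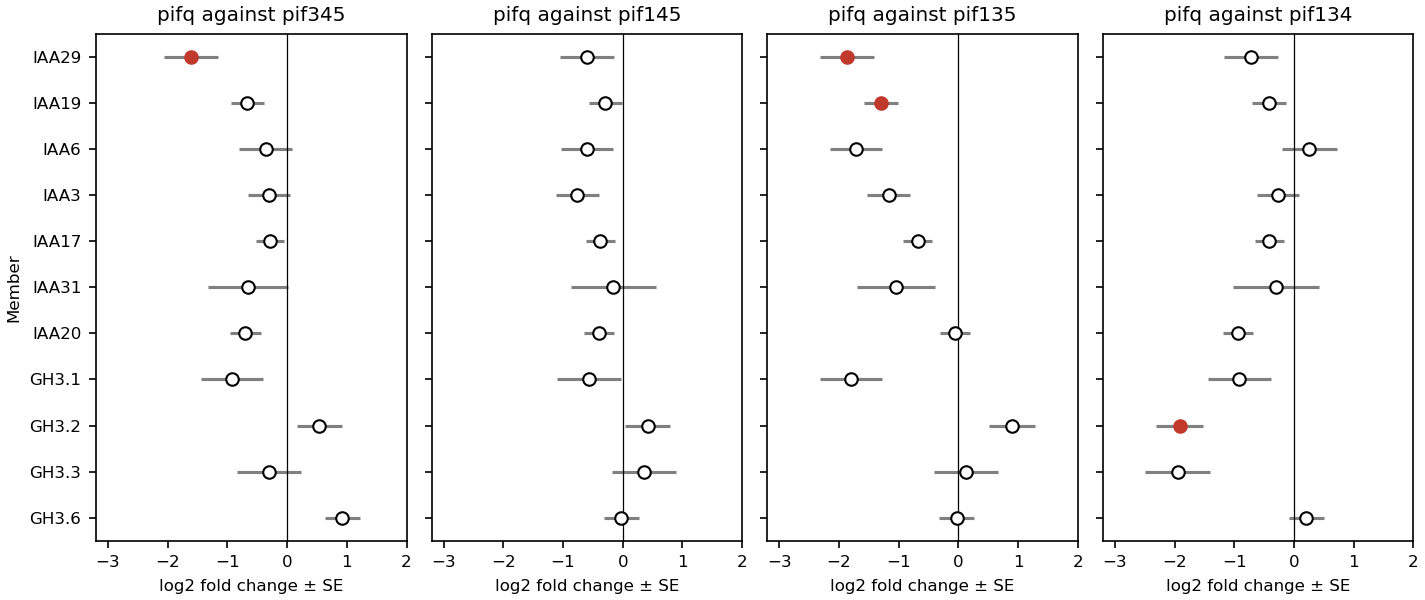
Log2 fold change of 11 members between pifq and each triple mutant, with bars of 1 SE from the fit without a block (n = 3 per group); filled red points passed an adjusted p under 0.05. IAA29 is lowest against pif345 (-1.61) and pif135 (-1.87), and GH3.2 falls against pif134 (-1.91).

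A joint test over the 4 triple mutants and pifq called 9 members, against 8.73% of all loci. These were GH3.2, GH3.3, IAA6, IAA19, IAA1, IAA29, IAA5, IAA18 and IAA20, with edgeR adjusted p from 8.29e-06 for GH3.2 to 0.0419 for IAA20. IAA10, IAA26, IAA27 and IAA31, called against WT in some triple mutants and not in others, were not called in this fit without a block. Without the libraries labelled pif134, 5 members were called (background 3.81%), of which 4 were among these 9: IAA1 (adjusted p = 0.00873), IAA29 (0.0142), IAA19 (0.0171) and IAA5 (0.0490). GH3.2 (0.284), GH3.3 (0.686), IAA6 (0.0533), IAA18 (0.0629) and IAA20 (0.257) were no longer called, and GH3.1 was called. Leaving out pif134 A ended the call of GH3.3 (0.728). Leaving out pif135 B ended those of IAA6 (0.215), IAA19 (0.164) and IAA5, pif135 C those of IAA1 (0.217), IAA29 and IAA5 (up to 0.400), pif135 A that of IAA1 and pifq C that of IAA29. The calls of IAA18 and IAA20 were lost without 12 and 8 of the 15 libraries taken in turn, up to 0.251 and 0.140. With the block within each set 17 members were called (background 25.7%). IAA27 was among them (edgeR adjusted p = 0.000655), and IAA10, IAA26 and IAA31 were not.

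Single mutants gave no called member by edgeR or DESeq2, which called 6.84%, 0.241%, 0.123% and 1.07% of all loci in pif1, pif3, pif4 and pif5. By edgeR, the background of calls was 3.76%, 0.112%, 0.0589% and 0.128%. At an unadjusted p under 0.05 there were 4 members in pif1 (19.7% of all loci), 3 in pif3 (4.11%), 0 in pif4 (3.62%) and 2 in pif5 (12.8%). A joint test over WT and the 4 single mutants called none either (background 4.48%), with 5 members at an unadjusted p under 0.05, against 18.2% of all loci. With the block within each set the joint test called 9 members (background 23.5%), which were IAA1, IAA2, IAA6, IAA7, IAA17, IAA19, IAA26, IAA27 and IAA32, and pif1 had 6 called (background 19.6%).

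In pif1, IAA1 held 16.8, 17.5 and 15.9 CPM against 9.03, 9.63 and 9.03 in WT. The groups were tight and well apart (0.86 ± 0.32, edgeR adjusted p = 0.130, and 0.86 ± 0.19 with the block, adjusted p = 0.00320). IAA7 was 1014, 1156 and 1037 CPM against 696, 706 and 739.5, also apart (0.58 ± 0.22, edgeR adjusted p = 0.124, and 0.0248 with the block). IAA26 was 21.5, 15.6 and 24.7 CPM in pif1 against 46.5, 25.7 and 35.1 (-0.80 ± 0.30, edgeR adjusted p = 0.127, and 0.00718 with the block), with each pif1 library below all 3 WT libraries. The block also called IAA2 (0.56) and IAA27 (0.55) higher and IAA31 (-1.31) lower. In the same pif1 libraries the seed storage markers summed to 48.8 to 67.8 CPM, with 3 of 4 called lower, and the photosynthetic markers to 3268 to 7186, with 2 of 3 called higher, and their part in these values was not tested.

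IAA19, called in 3 of the 4 triple mutants, was called in no single mutant. In pif5 it was 42.8, 38.6 and 38.4 CPM against 64.2, 58.8 and 57.9 in WT, a gap with no overlap (-0.59 ± 0.28, edgeR adjusted p = 0.367). In pif4 it was 72.2, 101 and 62.6 CPM, overlapping WT (0.38). IAA17 in pif5 was 524, 526 and 666 CPM, below all WT libraries (-0.47). IAA29 overlapped WT in all 4 single mutants, with changes of -0.24, 0.20, 0.09 and -0.48 in pif1, pif3, pif4 and pif5.

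Whether losing a PIF has the same effect in WT and in the triple mutant that keeps it was tested by an interaction. For PIF4, IAA19 passed (-1.68 ± 0.40, edgeR adjusted p = 0.0471, background 0.525%). The change was 0.38 between pif4 and WT and -1.30 between pifq and pif135. The call was lost without 10 of the 12 libraries taken in turn, with RLE scaling and without the filter (over all alternatives 0.00494 to 0.194). The block raised the count from 1 to 8 members, all with a more negative effect in pif135 (background 7.01%): IAA1, IAA2, IAA3, IAA6, IAA7, IAA16, IAA19 and IAA29. IAA6 had the largest of these, -2.38 ± 0.60 unblocked (edgeR adjusted p = 0.0643) and -2.40 ± 0.42 with the block (adjusted p = 0.00259). The median interaction over tested members was -0.63, against -0.01 over all loci. For PIF1 no member passed in edgeR or DESeq2 (background 0.653% and 2.4%), with 3 at an unadjusted p under 0.05 against 15.9% of all loci, and the block called IAA7 (-0.80), IAA26 (0.91) and IAA29 (-1.36, background 13.4%). For PIF3 none passed by edgeR, DESeq2 or with the block (backgrounds 0.219%, 0.385% and 0.798%), and 0 had an unadjusted p under 0.05 by edgeR, against 5.93% of all loci. Replicate C of pif145, which enters this PIF3 test, held PIF1 transcript.

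Other genes of the auxin pathway were counted in pifq against the same background of 15.2%. None of 11 receptor and corepressor genes was called (median log2 fold change -0.04), and 1 of 15 ARF genes was lower (median -0.23). That gene was ARF18 (AT3G61830), which held 18.5, 9.59 and 13.01 CPM in WT and 3.85, 4.20 and 3.81 in pifq (-1.79 ± 0.32, edgeR adjusted p = 0.000242). Of 7 other GH3 and auxin oxidase genes, 6 were tested and 1 was higher. GH3.9 (AT2G47750) had 0 counts in all 3 WT libraries and 53 counts over the pifq libraries, or 0.487, 1.27 and 0.724 CPM (edgeR adjusted p = 5.42e-06).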

How the data were processed

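The authors' deposited tables hold 1 whole-number read count per TAIR10 locus for each of 30 libraries of directional 3′-end mRNA, made from 20 µg of total RNA. Bowtie 0.12.7, edgeR and TAIR10 are named in the submitters' processing notes, without roles. Treatment of reads with several matches, which could affect related Aux/IAA genes, is not given in the sources used here. In 3 deposited tables, for WT B, pif3 B and pif5 C, the value of the unnamed last line is not whole. These may therefore be estimated counts as deposited, although every named value is whole, and they were fitted like the other libraries. The unnamed line, at most 0.0015% of a library, was left out. The protocol speaks of technical duplicate runs, which cannot be separated here.

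Loci were kept by filterByExpr (minimum count 10, 18680 of 33322 loci) and fitted in 1 model of 10 genotypes with edgeR 4.0.16 in R 4.3.3 (TMM factors, quasi-likelihood F test, prior count 2 for log values). Benjamini-Hochberg adjustment ran over all tested loci in each of 18 comparisons, and a call is an adjusted p under 0.05, from a 2-sided test. Standard errors were taken from the fit as the size of the log2 fold change divided by the root of F, and are not a spread between replicates. CPM uses TMM-scaled library sizes. Depth was 18.97 to 70.8 M counts. Alternatives were RLE scaling, total counts alone, no filter, replicate letters as a block, only the groups compared, DESeq2 1.42.0, each library left out and, added after seeing the data, the libraries labelled pif134 left out.

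Replicate letters deviated together (all 3 same-letter correlations over 0.1) in 19 of 20 genotype pairs inside 1 set (WT with the single mutants, or the triple mutants with pifq), and in 1 of 25 pairs across sets. The exception within a set was pif345 with pif145, at 0.0925 for letter C, a pair that was not compared directly. Across sets, letter A ran from -0.0820 (WT with pifq) to 0.584 (WT with pif134). Letter B ran from -0.306 (WT with pif345) to 0.307 (pif3 with pif134). Single letters thus deviated together in some pairs across sets as well. The letters were therefore taken to pair libraries within a set, as a result of the data and not of the labels.

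Values in every replicate are given for members called in pifq against WT, and in the other comparisons for the called members. The GH3 members and members without the degron core are given for pifq and the triple mutants, by level or by their change. Members and lists were chosen with earlier results of these data known. Positions and sequences come from RefSeq TAIR10.1, in which all 35 members matched by locus tag.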

Additional observations from a re-analysis of the deposited data

Results flagged for a closer look

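For IAA19, the change was 0.38 between pif4 and WT and -1.30 between pifq and pif135, a difference of -1.68 (edgeR's interaction test, adjusted p = 0.0471). The call was lost without 10 of the 12 libraries taken in turn, with RLE scaling and without the filter (adjusted p up to 0.194). With the replicate letter as a block within each set, the difference was -1.69 ± 0.33 (edgeR adjusted p = 0.00494). PIF4 transcript was not low in pif4, and pif135 A held PIF1 transcript, so the loss of PIF4 alone was not verified in these lines.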

How the results depend on the processing

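Of 42 named calls under 646 alternative values, 508 kept direction and call, 137 lost the call and 1 reversed: GH3.3 in pif134 against WT, -0.19 without pif134 A (log2; leaving out each library in turn gave -0.19 to 2.17); the cause was not tested. Counts of called members that moved by over 1.5 times follow, each with the share of all loci called in the same fit. The ranges over fits without 1 library come last and are given without that share.

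DESeq2 called 3 in pif345 (5.88%), 7 in pif145 (15.2%), 7 in pif135 (16%), 5 for pifq against pif135 (1.96%), 3 against pif134 (1.94%) and 3 for the PIF4 interaction (1.93%). With no filter, 0 were called in pif345 (2.93%) and 0 for PIF4 (0.329%). With only the 2 groups fitted, the counts were 1 in pif1 (5.12%), 4 in pif345 (5.19%), 2 in pif145 (5.49%), and 0 for pifq against pif135 (0.0169%) and 0 against pif134 (0.522%). RLE scaling gave 0 in pif345 (3.82%), 1 for pifq against pif135 (0.525%) and 0 for PIF4 (0.487%). Total counts alone gave 0 in pif345 (3.97%), 2 for pifq against pif345 (3.42%) and 3 for PIF4 (0.76%), with the median change of all loci at 0.17, -0.21 and -0.14 (from -0.35 to 0.19 over all comparisons). Without the libraries labelled pif134, added after seeing the data, the counts were 3 in pif345 (4.22%), 8 in pif145 (12.9%), 2 for pifq against pif345 (2.8%) and 5 among the triple mutants and pifq (3.81%).

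With 1 replicate block over all libraries, the counts were 1 in pif1 (12.3%), 5 in pif345 (9.65%), 10 in pif145 (21.7%) and 8 in pif135 (22.1%). For pifq they were 3 against pif345 (4.95%), 4 against pif135 (2.06%) and 2 against pif134 (2.26%), and for the interactions 1 for PIF1 (5.2%) and 5 for PIF4 (2.59%). With the replicate block within each set, they were 6 in pif1 (19.6%), 8 in pif345 (16.5%), 12 in pif145 (29.6%), 10 in pif135 (29.3%), 15 in pif134 (32.5%) and 15 in pifq (32.4%). For pifq they were then 4 against pif345 (10.4%), 9 against pif135 (6.49%) and 3 against pif134 (3.35%), with 3 for PIF1 (13.4%), 8 for PIF4 (7.01%), 9 among WT and single mutants (23.5%) and 17 among triple mutants and pifq (25.7%). Where triple mutants or pifq are set against WT, the letters were not shown to pair the libraries.

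Leaving out each library in turn gave 0 to 1 calls in pif1, 0 to 2 in pif345, 2 to 5 in pif145, 1 to 3 in pif135, 6 to 11 in pif134, 4 to 8 in pifq, 0 to 1, 0 to 4 and 0 to 2 for pifq against pif345, pif135 and pif134, 0 to 3 for PIF4 and 4 to 9 among triple mutants and pifq. The main counts of 9 in pifq and 4 in pif135 lay above these ranges. The share of all loci called in these fits is not given here. Whether the members lost calls more than all loci did cannot be told from the ranges. With 3 libraries per genotype, members at a few CPM or below rest on few counts. IAA31 had a median of 0.462 CPM and as few as 2 counts in a library.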
